A study of Rattus norvegicus with 18 samples.

Results

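The comparison described here sets livers of rats resuscitated with stored red blood cells (S-RBC) against livers of rats resuscitated with 10% HAES, a hydroxyethyl starch solution that expands the plasma volume and carries no red cells. Its members are the 3 arrays whose labels name stored red cells and the 3 whose labels name HAES, 6 of 18 arrays in the series, and they were described across all genes of the array. The rats were adult male Sprague-Dawley rats. Both groups shared a resection of 50% of the liver mass (PHx) and a controlled bleed of 3 ml at 1 ml/min through a femoral artery, and they differed in the fluid given back, which was either red cells stored for 7 days in the anticoagulant solution CPDA-1 or HAES. Livers were taken on day 1 after PHx, and total RNA of each rat was hybridised to 1 GeneChip Rat Gene 2.0 ST array, with 3 rats per group. Neither the volume of HAES nor the clock time of the operations could be read from the labels or the methods. The other 12 arrays, from naive animals, animals with only the resection (PHx), animals resected and bled without fluid (bleeding), and animals given fresh red cells after both (F-RBC), entered the model and are used below as levels for comparison only.

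The liver replaces resected mass by division and growth of the remaining hepatocytes, while it keeps up the secretion of plasma proteins. Secreted proteins are folded in the endoplasmic reticulum (ER), and a load on the ER switches on chaperone genes through the transcription factors Atf6, Xbp1 and Atf4. Injury signals, chiefly IL-6, also switch on acute phase genes in hepatocytes. Transfused red cells that are cleared by liver macrophages release heme, which is broken down by heme oxygenase, the product of Hmox1.

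Values below are log2(intensity + 16), with no further scaling of the arrays, and differences are S-RBC minus HAES on that scale, so that differences of dim genes are understated. The median intensity of an array was 17.98, 19.0 and 20.14 in the S-RBC group and 16.76, 18.83 and 23.02 in the HAES group. S-RBC replicate 1 stood apart, with r = 0.923 to 0.938 across probe sets against the other 5 arrays, while the highest r of any other array of the 6 was 0.967 to 0.969. The mean Euclidean distance was 88.5 within the S-RBC group, 75.5 within the HAES group and 85.0 between them, and the array nearest to HAES replicates 1 and 2 among the 6 was S-RBC replicate 2. Albumin (Alb), the main hepatocyte product, was at 12.86 ± 0.12 after S-RBC and 12.87 ± 0.16 after HAES (SD, n = 3), and none of 14 measured hepatocyte markers had an intensity under 16 on all 6 arrays.

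Few differences exceeded the spread between rats after adjustment. Of 36685 probe sets 2 passed an adjusted p of 0.05 (0.00545%, limma with Benjamini-Hochberg adjustment), and 4137 had an unadjusted p under 0.05 (11.3%), of which 2309 were higher and 1828 lower after S-RBC. The methods' t-test on the 6 arrays gave 2048 probe sets at an unadjusted p under 0.05 and 0 after adjustment. Differences of more than 2-fold were found in 285 probe sets, 162 of them higher after S-RBC. The median standard error of a gene was 0.164 and its 95% interval, which is not adjusted for the number of genes, reached a median of 0.346 to either side. A difference had to exceed the reach of its own interval for an unadjusted p under 0.05. To pass the adjusted threshold it had to be larger still. A gene that missed the threshold is not thereby shown to be alike in both groups.

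The 2 probe sets that passed were both higher after S-RBC, and neither can be given a gene. Probe set 17633198, which the annotation ties to several symbols, was at 12.52, 12.01 and 12.48 after S-RBC and at 11.41, 10.51 and 10.85 after HAES, a difference of 1.41 (SE 0.20, 95% interval 0.99 to 1.84, adjusted p = 0.039). Every S-RBC array lay above every HAES array, and the other groups with PHx were nearer to the S-RBC level, at 12.22 ± 0.25 after PHx alone, 12.31 ± 0.16 after bleeding and 11.76 ± 0.07 after F-RBC, against 8.72 ± 0.23 in naive rats. Probe set 17796044, which has no symbol, was dim, at 5.35, 5.48 and 5.51 after S-RBC and at 4.68, 4.61 and 4.54 after HAES (0.84, SE 0.11, adjusted p = 0.039). Here the other groups lay between them, from 4.81 in naive to 5.03 in F-RBC rats. Both lost the call in several of the other fits, as when only the 6 arrays or the 15 arrays of rats with PHx were fitted.

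Of 18166 genes with a symbol 0 passed the threshold by limma and 0 by the methods' t-test after adjustment, while by limma 1156 were higher and 766 lower at an unadjusted p under 0.05 (6.36% and 4.22%). The genes with the smallest p among those whose groups did not overlap are therefore given as measurements that did not pass, 10 in each direction (adjusted p = 0.104 to 0.158). Groups of 3 parted in this way in 8.59% of 18166 genes with S-RBC higher and in 3.92% with S-RBC lower.

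Among the 10 higher genes, Creld2, Manf, Slc35b1 and Ube2g2 encode proteins of the ER and of protein quality control. Creld2, an ER protein induced by misfolded proteins, was at 8.76, 8.18 and 9.53 after S-RBC and at 7.57, 6.68 and 6.73 after HAES, a difference of 1.83 (SE 0.33, 95% interval 1.13 to 2.53, adjusted p = 0.104). Manf, another secreted product of ER stress, differed by 1.05 (SE 0.19), with S-RBC arrays from 8.94 to 9.54 and HAES arrays from 7.92 to 8.48. Slc35b1, which brings ATP into the ER, read 9.49, 9.42 and 9.33 against 8.58, 8.13 and 8.49 (1.01, SE 0.19). Ube2g2, a ubiquitin-conjugating enzyme of ER-associated degradation, read 7.08, 7.27 and 7.48 against 6.17, 6.11 and 6.22 (1.11, SE 0.20). The gap between the groups was wider than the range of the HAES arrays for Slc35b1 and Ube2g2, and narrower for Creld2 and Manf.

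Acer2, a ceramidase of the Golgi apparatus, had the smallest p of all genes, 8.57e-06. Its S-RBC arrays were at 7.83, 8.21 and 8.15 and its HAES arrays at 6.94, 6.98 and 6.60, a difference of 1.22 (95% interval 0.81 to 1.63), and its HAES mean of 6.84 was that of naive rats (6.84). Cdkn1a, the inhibitor of cyclin-dependent kinases that is induced by p53 and by glucocorticoids, was at 8.15, 8.18 and 6.83 against 5.63, 6.02 and 6.13 (1.79, SE 0.32). S-RBC replicate 3 was the low array of its group and still lay above all HAES arrays. Sod2, the mitochondrial superoxide dismutase, was at 9.68, 9.40 and 10.57 against 8.82, 8.24 and 8.31 (1.43, SE 0.25). Snd1, Ccdc134 and Tmem258l5 completed the 10, with differences of 0.78, 0.81 and 1.04.

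Among the 10 lower genes, Hsd17b2, which inactivates estradiol and testosterone, differed most, at 7.29, 6.65 and 5.50 after S-RBC and 8.35, 9.33 and 9.71 after HAES, a difference of -2.65 (SE 0.50, 95% interval -3.71 to -1.59, adjusted p = 0.104). Its HAES mean of 9.13 was near that of naive rats (8.76), while PHx alone was at 6.52, near the S-RBC mean of 6.48. Arrdc3, an arrestin-like adaptor protein, was tight in both groups, at 7.57, 7.49 and 7.52 against 9.11, 9.33 and 9.60 (-1.82, SE 0.35). Igfals, which holds insulin-like growth factors in the circulation, was at 7.43, 7.34 and 7.07 against 8.40, 8.13 and 9.32 (-1.34, SE 0.26). Ccng2, a cyclin of resting cells, was at 5.78, 5.88 and 5.95 against 6.79, 6.79 and 6.78, a difference of -0.92. The remaining lower genes were Nat8f2 (-1.62), Fahd1 (-1.07), AKR1C3l1 (-1.08), Camk2n1 (-0.73), Ripor2 (-0.46) and the clock gene Nr1d1 (-1.57).

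**Figure D1:**
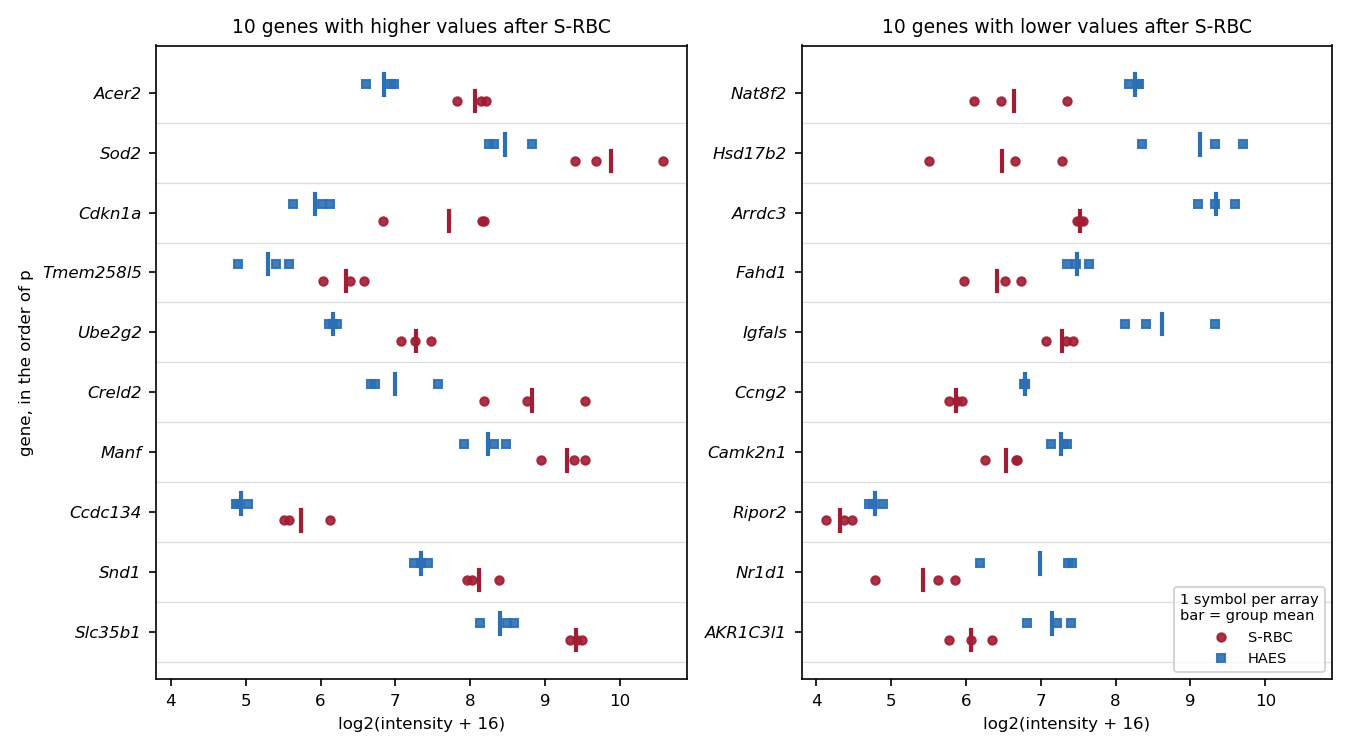
Level of the 10 genes with the smallest p in each direction, as log2(intensity + 16) on the horizontal axis. Each symbol is 1 array (circles S-RBC, squares HAES) and each bar a group mean of 3. In all 20 genes the groups do not overlap, which is how the genes were chosen, and none passed the adjusted threshold.

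The group of genes that stood out most from the background was that of ER chaperones and Xbp1 targets. All 25 measured genes of 26 on the list had a higher mean after S-RBC (24 with quantile normalization, where Xbp1 was at -0.04). Of these, 18 were at an unadjusted p under 0.05, against 6.36% of all genes in that direction, and 0 passed the adjusted threshold (smallest adjusted p = 0.104). The list median was 0.64, against 0.02 over all genes, and 14 of the 25 did not overlap between groups, against 8.59% of all genes in that direction. Averaged over the 25 genes, the S-RBC arrays were at 9.62, 9.20 and 9.51 and the HAES arrays at 8.96, 8.52 and 8.89. The HAES arrays thus lay below every S-RBC array and also below the arrays of PHx alone (9.06 to 9.26), bleeding (9.12 to 9.40) and F-RBC (9.20 to 9.33), and overlapped with naive livers (8.46 to 8.87).

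Within the list, the spread ran from Creld2 (1.83) to Xbp1 itself (0.05), and the order followed no single step of ER function. Derl3, a factor that moves misfolded proteins out of the ER, was at 8.11, 6.56 and 8.36 after S-RBC and at 7.22, 5.22 and 6.14 after HAES, the widest scatter of the list, and its groups overlapped (1.48, SE 0.46, adjusted p = 0.27). Edem1, which marks misfolded glycoproteins for disposal, was at 10.35, 10.25 and 10.03 against 9.13, 8.90 and 9.33 (1.09, SE 0.22, adjusted p = 0.125). Hyou1, a large chaperone of the ER lumen, was at 9.56, 8.63 and 9.08 against 8.35, 7.44 and 7.89 (1.20, SE 0.27). The abundant chaperones Hspa5 (BiP) and Hsp90b1 differed by 0.68 each, and the ubiquitin ligase Syvn1 by 0.75. The sensors Atf6 (0.35) and Ern1 (0.33) were among the 7 members that did not reach an unadjusted p of 0.05, as was Xbp1. Xbp1 acts through splicing of its RNA, which this summary of the array does not resolve.

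**Figure D2:**
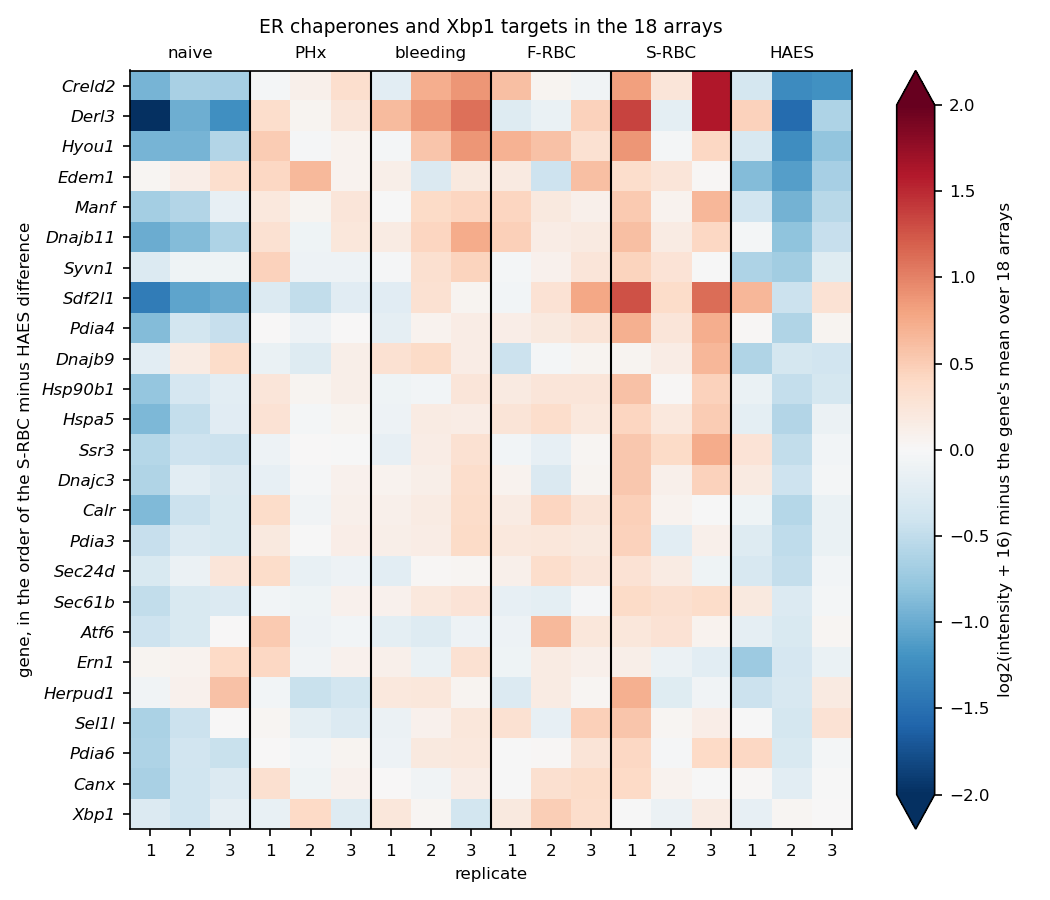
Levels of the 25 measured ER chaperone and Xbp1 target genes in all 18 arrays, as log2(intensity + 16) minus the mean of each gene over the 18 arrays, shown as colour, with genes ordered by their S-RBC minus HAES difference. Squares of the 3 HAES arrays are mostly blue or near white, as in naive rats, and those of the S-RBC arrays are mostly red, deepest for Creld2 and Derl3 in replicate 3.

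HAES had the lowest mean of the 5 groups with PHx in 19 of the 25 genes, against 23.3% of all genes, and S-RBC the highest in 13, against 20.4% of all genes. Without S-RBC replicate 1 or without HAES replicate 2, 13 of the 25 had an unadjusted p under 0.05 with medians of 0.57 and 0.45. Derl3 and Xbp1 are also made by plasma cells. Of 19 measured B and plasma cell markers, Derl3 and Xbp1 included, 7 were higher (all genes 54.4%) and 12 lower. At an unadjusted p under 0.05, 1 was higher and 3 lower, against 6.36% and 4.22% of all genes. Summed intensities were 1625 to 2033 after S-RBC and 1695 to 1917 after HAES. Plasma cells were poorly covered. Jchain, Pou2af1 and Cr2 had intensities under 16 on all 6 arrays, and Ighm and Igha were not matched. The part of plasma cells in the result was not tested.

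The ER stress element (ERSE), the sequence through which Atf6 and Xbp1 act on many of these genes, is shown in its promoter context for 6 of the 11 genes of the list that hold it or its variant, chosen to span the differences from Creld2 to Xbp1. Promoters are those of RefSeq on the rat assembly GRCr8, 250 bases before to 50 bases after the start of 33469 promoters, and both strands were searched for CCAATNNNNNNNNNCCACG (ERSE) and ATTGGNCCACG (ERSE-II). Each line gives 20 bases on either side of the match where the promoter before the start holds them, in the direction of the gene, and capitals mark the CCAAT and CCACG ends of the element, as written or as their reverse complement.
Creld2 (chr7:121789219-121789277, plus strand): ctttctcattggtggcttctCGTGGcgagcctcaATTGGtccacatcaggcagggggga
Derl3 (chr20:12766581-12766639, minus strand): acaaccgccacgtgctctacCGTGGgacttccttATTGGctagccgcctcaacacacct
Hspa5 (chr3:38452953-38453011, plus strand): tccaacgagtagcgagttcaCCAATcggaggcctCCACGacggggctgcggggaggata
Hsp90b1 (chr7:23012327-23012385, minus strand): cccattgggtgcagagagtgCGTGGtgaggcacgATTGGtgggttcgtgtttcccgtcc
Xbp1 (chr14:84604538-84604596, plus strand): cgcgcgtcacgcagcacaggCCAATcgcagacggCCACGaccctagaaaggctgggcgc
Hyou1, ERSE-II (chr8:53602774-53602824, plus strand): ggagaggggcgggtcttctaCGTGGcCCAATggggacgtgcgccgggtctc

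ERSE was found in 22 promoters (0.0657%) and ERSE-II in 17 (0.0508%). Of the 25 measured genes of the list 19 had a promoter in the table, and 8 of these held ERSE and 3 ERSE-II. Of the 11 genes with either element, 8 had an unadjusted p under 0.05 and the median difference was 0.68, and of the 8 genes with neither, 7 did, with a median of 0.73. Presence of the exact element in this window thus did not go with a larger difference. A match is a description of letters and not of binding.

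Genes under Atf4, which raises amino acid supply and serine synthesis, leaned the same way. Of 26 measured genes of 27, 23 were higher after S-RBC, against 54.4% of all genes, with a median of 0.41. At an unadjusted p under 0.05, 11 were higher and 1 lower, against 6.36% and 4.22% of all genes. Asns, which makes asparagine, was at 7.63, 7.68 and 8.15 after S-RBC and at 6.26, 5.96 and 6.62 after HAES (1.54, SE 0.33, 95% interval 0.84 to 2.23, adjusted p = 0.142). For Asns it was the S-RBC group that differed from the rest of the series, since the other means were 5.89 to 6.37 and the HAES mean 6.28. Mthfd2, a mitochondrial enzyme of folate metabolism, differed by 0.87 and its second probe set by 0.83. Pycr1 (proline synthesis) and Slc7a11 (cystine uptake) differed by 0.44 and 0.55, with groups that did not overlap. Groups parted with S-RBC higher in 11 of the 26 genes, against 8.59% of all genes. Stc2 differed most of the 3 lower genes, at -0.62, and was at -0.19 without S-RBC replicate 1. Without HAES replicate 1 or 2 the number at an unadjusted p under 0.05 was 6 higher genes, and without S-RBC replicate 1 it was 7.

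Ribosomal protein genes were shifted together by a small amount. All 36 measured genes of 47 had higher means after S-RBC (35 with quantile normalization), 15 at an unadjusted p under 0.05 (all genes 6.36%), with a median of 0.33, and averaged over the genes the S-RBC arrays were at 8.88, 8.88 and 8.89 and the HAES arrays at 8.63, 8.40 and 8.51. Rps3a was at 9.68, 9.24 and 9.41 against 9.10, 8.17 and 8.63 (0.81, SE 0.27), Rpl10 differed by 0.46 and its second probe set by 0.53. Rplp0 differed most, at 7.24, 7.14 and 6.67 against 5.09, 6.51 and 4.99 (1.49, SE 0.32). Such genes have many processed copies in the genome, so that the signal of single members is uncertain. The number at an unadjusted p under 0.05 was 5 without HAES replicate 2, 22 without HAES replicate 1 and 8 after quantile normalization. Oxidative phosphorylation genes had a higher mean in 37 of 43, against 54.4% of all genes (27 of 43 with quantile normalization), with a median of 0.19. At an unadjusted p under 0.05, 4 were higher, against 6.36% of all genes, among them Cycs (cytochrome c, 0.44). That number was 13 without HAES replicate 1, 1 without HAES replicate 2 and 0 with quantile normalization, where the list median fell to 0.07.

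**Figure D3:**
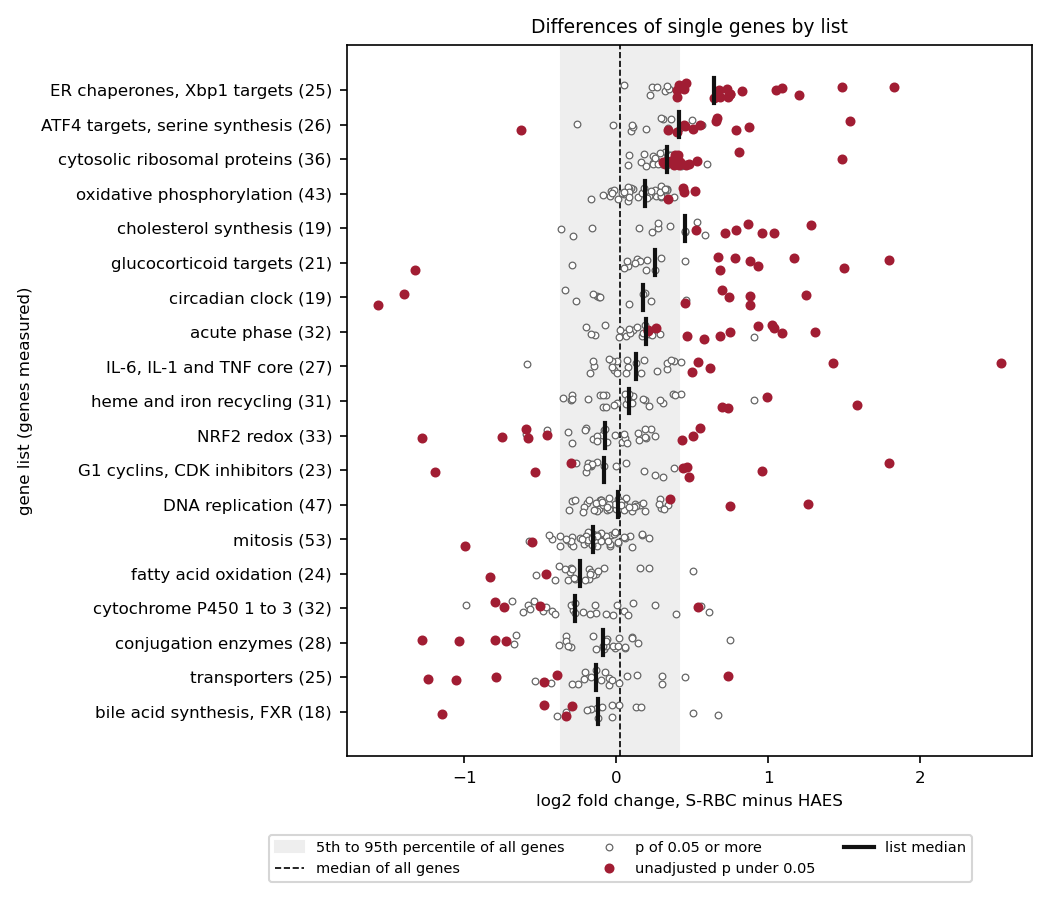
S-RBC minus HAES difference (log2) of each measured gene in 19 lists, 1 dot per gene, with filled dots for an unadjusted p under 0.05 and a bar at the list median. The dashed line is the median of all genes (0.02) and the band their 5th to 95th percentile. ER, Atf4, ribosomal and cholesterol genes lie mostly to the right of the line, while mitosis, fatty acid oxidation and cytochrome P450 genes lie mostly to the left.

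Cholesterol synthesis genes were higher in 16 of 19 (all genes 54.4%), 7 at an unadjusted p under 0.05 (all genes 6.36%), with a median of 0.45. Hsd17b7, an enzyme of the late pathway, was at 7.59, 7.40 and 7.33 against 6.50, 6.24 and 6.98 (0.87, SE 0.23, adjusted p = 0.195). Fdps, which makes farnesyl diphosphate, was at 9.19, 8.85 and 9.20 against 7.97, 7.28 and 8.87, and HAES replicate 3 lay within the S-RBC range. Insig1, the sterol-regulated brake on SREBP, and Idi1 showed the same overlap (1.28 and 0.96). With HAES replicate 3 left out 12 genes had an unadjusted p under 0.05 and the median was 0.86, whereas without S-RBC replicate 1 or HAES replicate 2 there were 2, with medians of 0.13 and 0.15.

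Clock genes differed in opposite directions. In liver, Bmal1 and Clock drive the daily transcription of Nr1d1 and Dbp, and the protein of Nr1d1 (Rev-erb alpha) represses Bmal1 and Nfil3. Nr1d1 was at 5.86, 5.63 and 4.79 after S-RBC and at 6.20, 7.41 and 7.37 after HAES (-1.57, SE 0.35, 95% interval -2.30 to -0.84, adjusted p = 0.158). Dbp was at 7.05, 7.64 and 6.41 against 8.02, 8.68 and 8.59 (-1.40, SE 0.32). Both genes were lower on every S-RBC array than on any HAES array, as were 3.92% of all genes. Bmal1 was at 7.83, 7.72 and 7.56 against 6.96, 6.03 and 6.38 (1.25, SE 0.30), and Nfil3 at 6.63, 6.50 and 6.48 against 5.55, 5.75 and 6.10 (0.74, SE 0.18). Of 19 measured clock genes 6 were higher and 2 lower at an unadjusted p under 0.05, against 6.36% and 4.22% of all genes, and Per1, Cry1, Usp2 and Csnk1e were the other higher ones. Tef, a relative of Dbp, was at 6.11, 5.98 and 5.57 against 5.77, 6.37 and 6.32 (-0.26, 95% interval -0.67 to 0.15). The median of the list was 0.01 when S-RBC replicate 1 was left out and 0.0049 when S-RBC replicate 2 was.

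The Nr1d1 level was 5.15 ± 0.45 after PHx alone, close to 5.43 ± 0.57 after S-RBC, whereas naive (7.26 ± 0.16), bleeding (6.58 ± 0.49), F-RBC (6.75 ± 0.33) and HAES rats (6.99 ± 0.69) were higher. The time of day at which livers were taken is not in the labels, so that it cannot be told apart from the fluid given. The Rev-erb and ROR element TAGGTCA, present in 2.63% of promoters, is found in the Bmal1 promoter, which is shown with the element in capitals.
Bmal1 (chr1:176766292-176766327, plus strand): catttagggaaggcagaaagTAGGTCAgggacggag

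**Figure D4:**
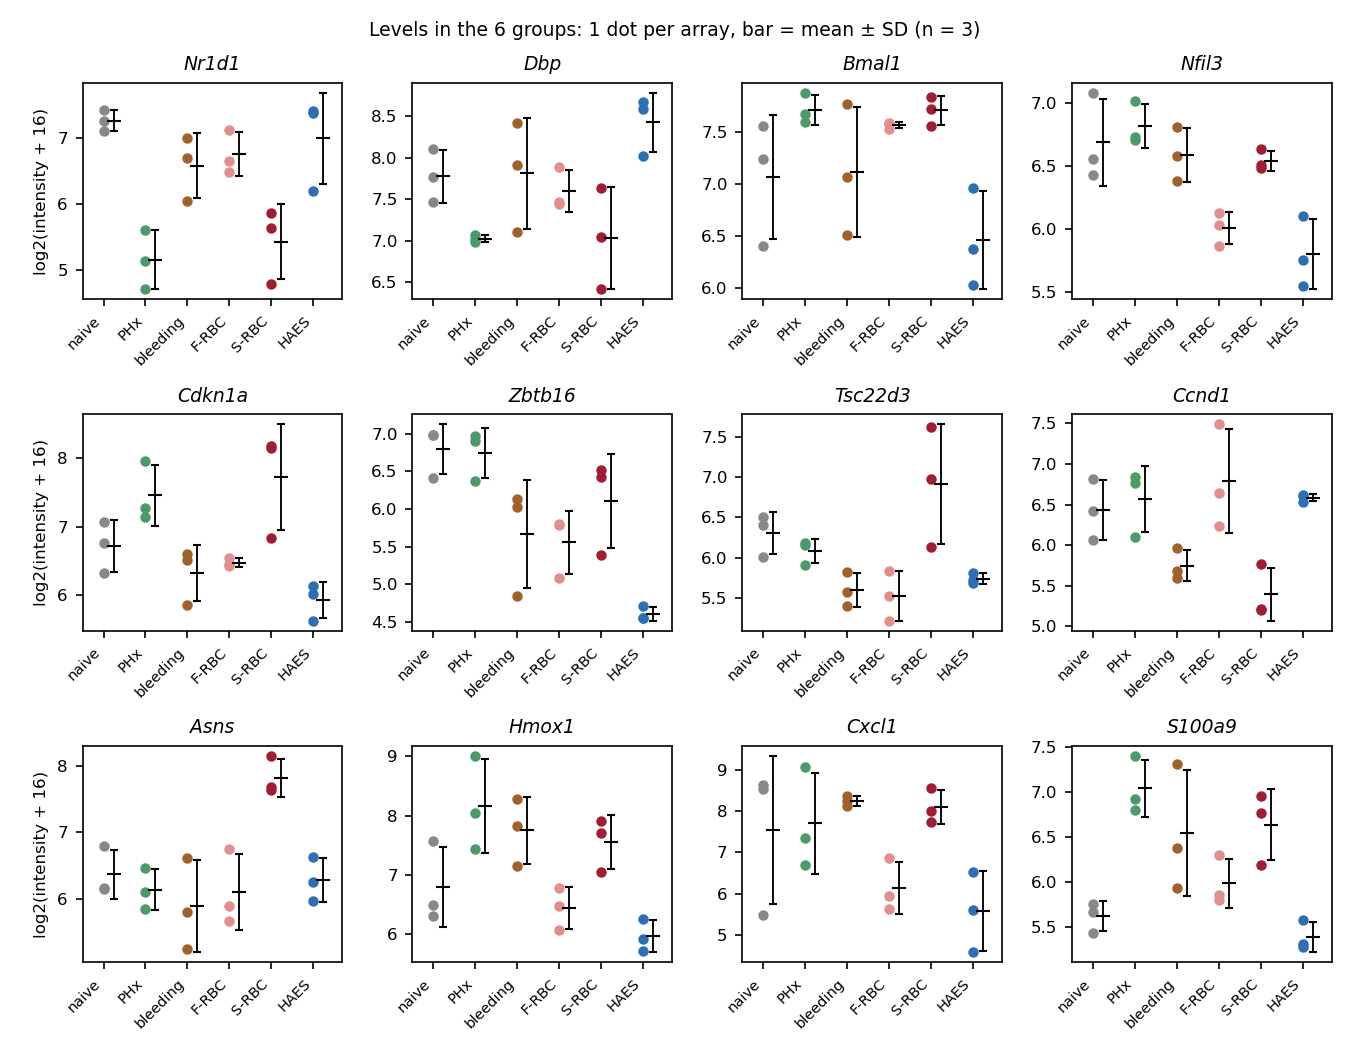
Levels of 12 named genes in the 6 groups, as log2(intensity + 16), with 1 dot per array and mean ± SD beside it. S-RBC and HAES arrays do not overlap in any of the 12 panels, whose genes were named for a small p. Of all genes, 8.59% parted in this way with S-RBC higher and 3.92% with S-RBC lower. In Nr1d1 and Hmox1 the S-RBC arrays lie near those of PHx alone, and in Asns they lie above all other groups.

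Glucocorticoid targets were higher in 19 of 21 (all genes 54.4%), with a median of 0.26. At an unadjusted p under 0.05, 8 were higher and 1 lower (all genes 6.36% and 4.22%). Besides Cdkn1a, these were led by Zbtb16, at 6.51, 6.42 and 5.38 after S-RBC and at 4.55, 4.56 and 4.72 after HAES (1.5, SE 0.34), and Tsc22d3 (GILZ), at 7.62, 6.97 and 6.14 against 5.69, 5.73 and 5.82 (1.17, SE 0.27). In both genes the HAES arrays were close together and the S-RBC arrays spread widely, with replicate 3 lowest. The HAES values of Zbtb16 lay near the floor set by the added 16, which narrows their spread. Over the alternatives its difference ran from 0.71 to 2.5. Fkbp5, which restrains the glucocorticoid receptor, was at 7.59, 7.39 and 7.96 against 7.13, 6.87 and 6.89 (0.68). Serpina6, the corticosteroid-binding globulin of plasma, was lower, at 7.57, 7.37 and 6.84 against 8.20, 8.59 and 8.96 (-1.33, SE 0.39, adjusted p = 0.237). Across the list the differences ran from -1.33 for Serpina6 to 1.79 for Cdkn1a. The number of higher genes was 5 without S-RBC replicate 1, HAES replicate 1 or HAES replicate 2.

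Genes of cell division did not show a common shift at the level of single genes. Of 53 measured mitosis genes 44 had lower means after S-RBC (all genes 8278 of 18166), with a median of -0.16. Only Nuf2 (-0.99, adjusted p = 0.209) and Pttg1 (-0.55) had an unadjusted p under 0.05, near the 4.22% of all genes in that direction. Leaving out HAES replicate 2 moved the median to -0.02. Nuf2, which ties chromosomes to the spindle, was at 4.17, 5.17 and 5.26 after S-RBC and at 5.26, 6.49 and 5.83 after HAES, with a slight overlap. Its S-RBC replicate 1 lay near the floor set by the added 16, and over the alternatives its difference ran from -1.88 to -0.46. DNA replication genes were higher in 25 and lower in 22 of 47 with a median of 0.01 (22 and 25 with a median of -0.01 with quantile normalization). Of these, 3 were higher at an unadjusted p under 0.05, near the 6.36% of all genes, namely Rpa3 (1.26), Mcm10 (0.75) and Orc6 (0.36). Regulators of G1 moved apart. Ccnd1, the cyclin that carries hepatocytes into the cycle, was at 5.20, 5.77 and 5.21 after S-RBC and at 6.61, 6.62 and 6.53 after HAES (-1.19, SE 0.28, 95% interval -1.78 to -0.60, adjusted p = 0.159). Gadd45a (0.96), Ccng1 (0.47) and Cdkn2b (0.48), which like Cdkn1a are known as brakes or damage-response genes, were higher, as was Ccne1 (0.44), while Cdk2 (-0.54) and E2f1 (-0.30) were lower, all at an unadjusted p under 0.05. Without S-RBC replicate 1, Cdk2 was at -0.16, E2f1 at -0.13 and Cdkn2b at 0.19, while Gadd45a, Ccng1 and Ccne1 were at 0.81, 0.49 and 0.34. Of 23 measured G1 genes 5 were higher and 3 lower at an unadjusted p under 0.05, against 6.36% and 4.22% of all genes. The number of lower genes was 1 without S-RBC replicate 1, HAES replicate 1 or HAES replicate 3. Hgf, the hepatocyte growth factor, was at 8.69, 8.46 and 8.92 against 8.15, 7.82 and 7.79 (0.77, SE 0.22, adjusted p = 0.234), and Igfbp1, which binds insulin-like growth factors, was at 9.08, 8.50 and 7.92 against 7.03, 7.59 and 6.67 (1.40, SE 0.59). Hgf is also a marker of stellate cells, of which 19 of 31 measured markers were higher, with summed intensities of 4341 to 5809 after S-RBC and 3279 to 5256 after HAES, and the part of these cells was not tested. In whole liver, fewer cells of a type and less RNA per cell cannot be told apart.

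Of 32 measured acute phase genes 28 were higher after S-RBC, against 54.4% of all genes, with a median of 0.20. At an unadjusted p under 0.05, 12 were higher and none lower, against 6.36% and 4.22% of all genes. Junb, an immediate target of IL-6, was at 6.96, 6.77 and 7.45 against 5.58, 6.20 and 6.12 (1.09, SE 0.32, adjusted p = 0.234), Il1rn, the antagonist of the IL-1 receptor, at 7.74, 7.65 and 8.53 against 6.81, 6.94 and 7.05 (1.04), and Osmr, the oncostatin M receptor, at 7.51, 6.24 and 7.50 against 5.80, 5.57 and 5.97 (1.31). Socs3 (1.02), Stat3 (0.58), Il1r1 (0.68) and Il6r (0.47) were also higher at that level. Of the plasma proteins, Lcn2 differed by 0.93, Lbp by 0.75 and Fgb by 0.21, whereas Hp (0.07) and Hpx (0.11) did not reach an unadjusted p of 0.05. The number was 6 without HAES replicate 1 or 2, 7 without S-RBC replicate 1, and 7 higher and 1 lower after quantile normalization. Il6 (0.16), Tnf (0.13) and Il1b (-0.03) themselves were dim and overlapped.

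Cxcl1, a chemokine that attracts neutrophils, had one of the widest differences, at 7.74, 8.01 and 8.56 after S-RBC and at 4.58, 5.61 and 6.53 after HAES (2.53, SE 0.71, 95% interval 1.02 to 4.04, adjusted p = 0.228). Naive livers ranged over a similar span (7.55 ± 1.80). Cxcl1 did not stand for its list. Of 47 measured chemokines and receptors 2 were higher and 5 lower at an unadjusted p under 0.05, against 6.36% and 4.22% of all genes. The list median was 0.02. Cxcl13, Cx3cl1 and Cxcl12 were lower, at -1.77 to -0.45, -1.23 to -0.18 and -0.93 to -0.32 over the alternatives. S100a9 and S100a8 are the calprotectin subunits of neutrophils and monocytes. S100a9 was at 6.76, 6.19 and 6.95 against 5.27, 5.58 and 5.30 (1.25, SE 0.28). S100a8 was at 5.61, 5.54 and 6.07 against 4.48, 4.73 and 4.46 (1.18, SE 0.27). The HAES values of S100a8 lay near the floor set by the added 16, which narrows their spread. Over the alternatives its difference ran from 0.51 to 2.18. Of 21 measured neutrophil markers 13 were higher with a median of 0.03, and S100a8, S100a9 and Lcn2 (0.93) were the 3 higher at an unadjusted p under 0.05, against 6.36% of all genes, with none lower at that level. The granule enzymes Mpo, Elane and Prtn3 were at -0.16, -0.23 and -0.22, and Ltf, Ngp, Cxcr2, Fpr1 and Retnlg had intensities under 16 on all 6 arrays. The summed marker intensity was 1861 to 3646 after S-RBC and 1279 to 2139 after HAES, and Lcn2 is also made by hepatocytes. The part of neutrophils was not tested. Resident macrophage markers had higher means in 24 of 28 (all genes 54.4%), with a median of 0.21. Only Cd5l had an unadjusted p under 0.05 (0.41, adjusted p = 0.441), against 6.36% of all genes in that direction, and 0 markers did with quantile normalization. The summed intensities of these markers, 4491 to 6149 and 4132 to 4718, overlapped. Cd163, the scavenger receptor for hemoglobin bound to haptoglobin, was at 6.99, 7.37 and 7.15 against 6.59, 6.66 and 6.99 (0.42, 95% interval -0.06 to 0.90), and Cd68 differed by 0.24 (95% interval -0.33 to 0.82).

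Because the groups differ in whether red cells were given, the genes of heme and iron handling and of red cells are given together. Hmox1 was at 7.92, 7.05 and 7.71 after S-RBC and at 5.73, 6.26 and 5.92 after HAES (1.59, SE 0.39, 95% interval 0.76 to 2.42, adjusted p = 0.176). Every S-RBC array was above every HAES array. The level after S-RBC (7.56 ± 0.46) was not above that of PHx alone (8.17 ± 0.79) or of bleeding without fluid (7.75 ± 0.57), and the HAES level (5.97 ± 0.27) was the lowest of the 6 groups, below F-RBC (6.44 ± 0.36) and naive rats (6.80 ± 0.67). Slc39a14, an importer of iron and zinc, was at 9.77, 9.70 and 9.64 against 8.89, 8.72 and 9.42 (0.69), Abcg2, an exporter of porphyrins, differed by 0.73, and the transferrin receptor Tfrc by 0.99 with overlapping groups. At an unadjusted p under 0.05, 4 of 31 genes on this list were higher and 0 lower, against 6.36% and 4.22% of all genes. The other 27 genes had a p of 0.05 or more, among them the carriers of free hemoglobin and heme, Hp (0.07) and Hpx (0.11).

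Red cell genes had no common direction. Of 25 measured erythroid genes 10 were higher (all genes 54.4%) and 15 lower, with 2 lower (all genes 4.22%) at an unadjusted p under 0.05. These were Slc4a1, the anion exchanger of the red cell membrane, at 4.84, 5.43 and 4.94 after S-RBC and 5.75, 6.13 and 5.63 after HAES (-0.77, SE 0.20, adjusted p = 0.191), and Rhag (-0.51). The hemoglobin gene Hba-a3 was at 7.17, 7.30 and 7.42 against 7.94, 7.25 and 7.86 (-0.39, 95% interval -1.37 to 0.59), and Hbe1, Hbg1, Ahsp, Kel, Tal1 and Trim58 had intensities under 16 on all 6 arrays.

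Several hepatocyte functions had lower means after S-RBC. Fatty acid oxidation genes were lower in 21 of 24 (all genes 8278 of 18166), with a median of -0.24. Only the peroxisomal enzymes Ehhadh (-0.83, adjusted p = 0.326) and Acaa1a (-0.46) had an unadjusted p under 0.05, against 4.22% of all genes in that direction. Leaving out S-RBC replicate 3 moved the median to -0.02, with 0 genes at that level, whereas 7 were lower at that level with quantile normalization. Cytochrome P450 genes of families 1 to 3 were lower in 23 of 32 (median -0.27), and 8 of them did not overlap, against 3.92% of all genes. Cyp2e1, which oxidises ethanol, was at 10.55, 10.65 and 10.20 against 11.03, 11.51 and 11.26 (-0.80, SE 0.18, 95% interval -1.19 to -0.41, adjusted p = 0.158). Cyp2a1 and Cyp2f4 were at -0.74 and -0.50, and Cyp2j10 differed the other way (0.54). At an unadjusted p under 0.05, 3 members were lower and 1 higher, against 4.22% and 6.36% of all genes. After quantile normalization 7 members were lower at that level in place of 3.

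Of 28 measured conjugation genes 4 were lower and none higher at an unadjusted p under 0.05, against 4.22% and 6.36% of all genes. The NRF2 list was divided, with 3 genes higher and 5 lower at that level out of 33, against 6.36% and 4.22% of all genes. With quantile normalization the numbers were 3 and 9. The higher genes differed by at most 0.55. Txnrd1, a thioredoxin reductase, did not reach that level (0.15). Gclm and Gclc, subunits of the enzyme that limits glutathione synthesis, were at 8.98, 8.66 and 8.56 against 9.55, 9.31 and 9.59 (-0.75, SE 0.20, adjusted p = 0.191) and at 8.18, 8.26 and 8.05 against 8.76, 8.77 and 8.69 (-0.58, SE 0.17). Gsta2, a glutathione transferase, was at 8.0, 9.16 and 8.72 against 9.86, 10.00 and 9.86 (-1.28, SE 0.39), and Gstm2 and Gstm7 were at -0.73 and -0.80, members of a family with closely similar copies. In each of these 5 genes, which were named for a small p, every S-RBC array lay below every HAES array. This held for 7 of the 33 NRF2 genes and 4 of the 28 conjugation genes, against 3.92% of all genes. Gstm3, of the same family, went the other way without reaching an unadjusted p of 0.05 (0.75, 95% interval -0.11 to 1.61).

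Transporter genes and bile acid genes were lower in part. Slco1a4, an uptake carrier of organic anions, was at 8.06, 8.72 and 7.94 against 9.66, 9.13 and 9.10 (-1.06, SE 0.29, adjusted p = 0.215), and Slco1b2 and the bile acid importer Slc10a1 were at -0.39 and -0.48. Abcg5, which exports sterols into bile, was at 5.51, 6.33 and 5.16 against 7.41, 7.12 and 6.20 (-1.24, SE 0.34), where HAES replicate 3 lay within the S-RBC range. Nr0b2 (SHP), the repressor induced by bile acids, was at 4.76, 5.36 and 4.66 against 5.55, 6.39 and 6.28 (-1.15, SE 0.36). Its S-RBC replicates 1 and 3 lay near the floor set by the added 16, and over the alternatives its difference ran from -1.80 to -0.56. Of 25 transporters 5 were lower and 1 higher at an unadjusted p under 0.05, against 4.22% and 6.36% of all genes. Of 18 bile acid genes 4 were lower and none higher at that level, and 1 was lower and 1 higher when S-RBC replicate 2 or HAES replicate 3 was left out, 2 lower and 1 higher without S-RBC replicate 3.

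In several other lists the counts at an unadjusted p under 0.05, both directions together, were near or below the share of all genes (6.36% higher and 4.22% lower). They were 0 of 16 cytosolic heat shock genes (median -0.08), 0 of 26 hypoxia response genes (median 0.13) and 0 of 24 recruited macrophage genes. There was 1 of 31 lysosome and endocytosis genes, 1 of 16 genes of glycogen and starch breakdown and 1 of 16 cholangiocyte markers. Complement genes had 2 of 25, T and NK cell markers 2 of 29 and interferon-stimulated genes 3 of 42. Arg1, Plau, Plat, Plg, Tgfb1, Icam1 and Il10, which the study had followed by other assays, differed by -0.10 to 0.33, with overlapping arrays and 95% intervals that all included 0.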

How the data were processed

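Each of 18 rats gave 1 liver RNA sample and 1 array (GeneChip Rat Gene 2.0 ST). The labels place them in 6 groups of 3, of which S-RBC and HAES are compared. The deposited values are linear intensities per probe set, summarised by the authors from 1e-05 to 8721, with no common scale between arrays. PLIER is named both by the submitters' processing notes, beside Affymetrix Power Tools, and by the methods, beside RMA. Versions, and the algorithm behind these values, were not given in the sources used here. Because arrays differed in their median, a shift of scale can enter small differences, and scaled alternatives were run. The number of arrays limits the precision.

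The differences were computed from log2(intensity + 16) with limma 3.58.1 in R 4.3.3, with 1 mean per group over 18 arrays (12 residual degrees of freedom), a variance trend and Benjamini-Hochberg adjustment over 36685 probe sets at a threshold of 0.05. The script was tested on simulated data. A gene is its brightest probe set with 1 symbol (18511 probe sets, 18166 genes), and 575 probe sets with several symbols and 17599 with none were not named. Standard errors and 95% intervals are limma's. Adjusted p-values and unadjusted p-values are both from this fit unless the methods' t-test is named.

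The text names up to 15 genes in each direction past the threshold, filled to 10 by the smallest p among genes whose groups did not overlap, up to 4 members of each list by p, and the genes named in the study. Predicted genes, small RNAs and large families were skipped, and these families were spelled out after values were seen, which left out Pramef8l2 and Mir150 among the lower genes. Some other list members were named after their values were seen. The members and the 47 lists (1282 genes, 1104 of them measured) were chosen with earlier results of these data known.

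Promoters were read from RefSeq (GRCr8). Each result was recomputed with offsets of 1 and 64, with median centring or quantile normalization of the arrays, and with the brighter part of the probe sets, fits to the 6 compared arrays or to 15 arrays without naive rats, array weights, a replicate block, the methods' t-test, and leaving out each replicate.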

Additional observations from a re-analysis of the deposited data

How the results depend on the processing

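With 3 rats per group and separate arrays, small differences are beyond the precision of these data. The number of probe sets past the threshold was 2, and it was 1 with median centring, 1 in the brighter part of the probe sets, and 0 with an offset of 1, with only the 6 arrays compared, with the 15 arrays without naive rats, with array weights and with the methods' t-test. Leaving out 1 replicate gave 0 (without HAES replicate 3) to 24 (without HAES replicate 1), with 3, 8 and 19 without S-RBC replicates 1, 2 and 3 and 21 without HAES replicate 2. The number at an unadjusted p under 0.05 (4137) was 2484 in the brighter part, where fewer probe sets were tested, 2283 with only the 6 arrays and 2048 with the methods' t-test, which uses the 6 arrays and also no shared variance between probe sets. Why these and the other counts moved was not tested. Same-numbered arrays of the groups deviated together little (r = 0.0299, 0.178 and 0.000517), so that the numbers were not taken as pairs. With the replicate block 1 probe set passed.

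Of 225 named genes 150 had an unadjusted p under 0.05, and 0 of these changed sign in the 16 alternatives. This count cannot show how robust the differences are, because many of the genes were named for a small p in the same data. Where groups do not overlap, leaving out 1 replicate or changing the offset cannot turn the sign. The fits to fewer groups, the replicate block and the methods' t-test also leave the difference itself unchanged. Of the named genes 10 passed the threshold in at least 1 alternative, each time with a replicate left out. Signs turned 22 times in 10 genes near 0. With quantile normalization these were Il1b (0.0062), Il10 (0.018), Hprt1 (-0.034), Hp (-0.058) and Xbp1 (-0.037), with an offset of 64 Il1b (0.024), and with array weights Tnf (-0.077) and Il1b (0.20). With 1 replicate left out the ranges were -0.60 to 0.076 for Cd80, -0.0031 to 0.28 for Slc5a1, -0.095 to 0.32 for Tnf, -0.14 to 0.21 for Tgfb1, -0.39 to 0.41 for Il1b, -0.12 to 0.067 for Il10, -0.046 to 0.23 for Hprt1, -0.19 to 0.019 for Plg and -0.026 to 0.11 for Xbp1. The medians of 29 of 47 lists kept their sign in all alternatives run.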
